A study of Homo sapiens with 56 samples.

Results

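The comparison asked how far the response to 12 h of PMR-116 differed between 2 human acute myeloid leukaemia lines, Mv4;11 and KG-1. For each gene the log2 effect of PMR-116 over its own vehicle was estimated in each line, and the KG-1 effect was subtracted from the Mv4;11 effect. A positive difference therefore means a higher treated-to-vehicle ratio in Mv4;11 than in KG-1, and a negative one a lower ratio. Genes were taken by symbol from both deposited count tables, and a gene was kept when its mean reached 5 CPM, counts scaled to the size of the library, in at least 1 of the 2 groups of each line. This left 9679 genes of the 59081 symbols shared by the tables, read in 14 of the 56 libraries of the series. Mv4;11 cells received 1 µM PMR-116 (3 libraries) or vehicle (3 libraries) for 12 h, and KG-1 cells received 1 µM PMR-116 (4 libraries) or vehicle (4 libraries) for 12 h. The vehicle was a citric acid and sodium phosphate solution, and all cells grew in RPMI medium. The labels do not say whether replicates were separate cultures, so the p-values measure the spread between these libraries, which may be partly technical.

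PMR-116 and CX-5461, the second compound of the series, are inhibitors of RNA polymerase I. That polymerase makes the precursor of the large ribosomal RNAs in the nucleolus. Ribosome assembly draws on many nucleolar factors, whose genes are common targets of the transcription factor MYC. When assembly is disturbed, free ribosomal proteins can bind MDM2, the ubiquitin ligase that keeps p53 low, and p53 then activates genes of growth arrest and apoptosis. Mv4;11 is a myelomonocytic line with a KMT2A-AFF1 fusion and an internal tandem duplication in FLT3. KG-1 is an immature myeloblastic line known for its expression of the progenitor antigen CD34.

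The labelled lines were checked against their markers in the vehicle groups. Mean CD34 was 0.0782 CPM in Mv4;11 and 2106 in KG-1, mean FLT3 was 379 against 5.88, and mean LYZ, which encodes the monocyte enzyme lysozyme, was 1042 against 7.75. The shared myeloid markers CD33 (101 and 100 CPM) and SPI1 (195 and 141 CPM) were present in both. Library totals ran from 48891253 to 66316398 counts in the KG-1 table and from 28713553 to 37782255 in the Mv4;11 table. All Mv4;11 libraries carry the label batch 1 and all KG-1 libraries the label batch 2, so line and batch cannot be told apart. Each treated group has its vehicle within the same batch. Vehicle replicate 3 of Mv4;11 stood apart in abundant noncoding RNAs: RN7SL2 was at 402 CPM against 10.6 to 13.8 in the other vehicle libraries, and the mitochondrial ribosomal RNA MT-RNR1 at 2394 against 304 to 330. The kit enriches polyadenylated RNA, so such transcripts are read incompletely.

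PMR-116 changed more genes, and by more, in Mv4;11 than in KG-1. The median absolute log2 effect over the 9679 genes was 0.31 in Mv4;11 and 0.11 in KG-1, at median standard errors of 0.095 and 0.080. An effect of 2-fold or more was fitted for 783 genes in Mv4;11 and for 12 in KG-1. At an adjusted p under 0.05 (edgeR's quasi-likelihood test, adjusted over all 23759 genes tested), 2474 of the genes rose and 3205 fell in Mv4;11, against a share called of 34.9% over all genes tested. In KG-1, 578 rose and 605 fell, against 6.33% over all genes tested. Across the genes the 2 effects correlated weakly (Pearson r = 0.132, a description over genes, which are not independent replicates).

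The difference of the effects was itself called for 4627 genes. It was positive for 1866 (19.3% of the 9679, against 12.1% of all genes tested) and negative for 2761 (28.5%, against 13.2%). It reached 2-fold in 302 of the positive (3.12% of the 9679) and 480 of the negative genes (4.96%). Without vehicle replicate 3 of Mv4;11 the counts were 1567 and 3015. The main fit had no term for the replicate number, and with it as a block in KG-1 only they were 2091 and 3036. The largest class held genes called in Mv4;11 and not in KG-1: 1478 (15.3% of the 9679) rose and 2288 (23.6%) fell in Mv4;11. The reverse class, called in KG-1 and not in Mv4;11, held 99 genes (1.02%) that rose and 95 (0.982%) that fell in KG-1. Shares over all genes tested were not computed for these 2 classes, nor for the 2-fold differences. Where both effects were called in 1 direction with a called difference (205 genes), the Mv4;11 effect was the larger for all but 2. A further 199 genes had a called difference with neither effect called, and 263 were called in opposite directions.

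The balance of positive and negative differences depended on the scaling of the libraries. Positive differences made up 40.3% of the calls with TMM factors over all 56 libraries. They made up 54.0% (2657 positive and 2260 negative) with library totals and 29.5% (1434 and 3431) with TMM factors within each line. The median Mv4;11 effect over the genes moved from -0.04 to 0.07 and -0.12 with these scalings, so small differences have no fixed sign and the gene groups below are read against the median difference of -0.04. The filter also bears on the counts. Of the genes, 181 reached 5 CPM in Mv4;11 only in the treated group, and 147 only in the vehicle group. Of the first set 117 had a called difference, all positive, and of the second 94, all negative. Among the 9264 genes at 5 CPM or more in all 4 groups, 1719 differences were positive, 2659 were negative and 255 genes were called in opposite directions.

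**Figure D1:**
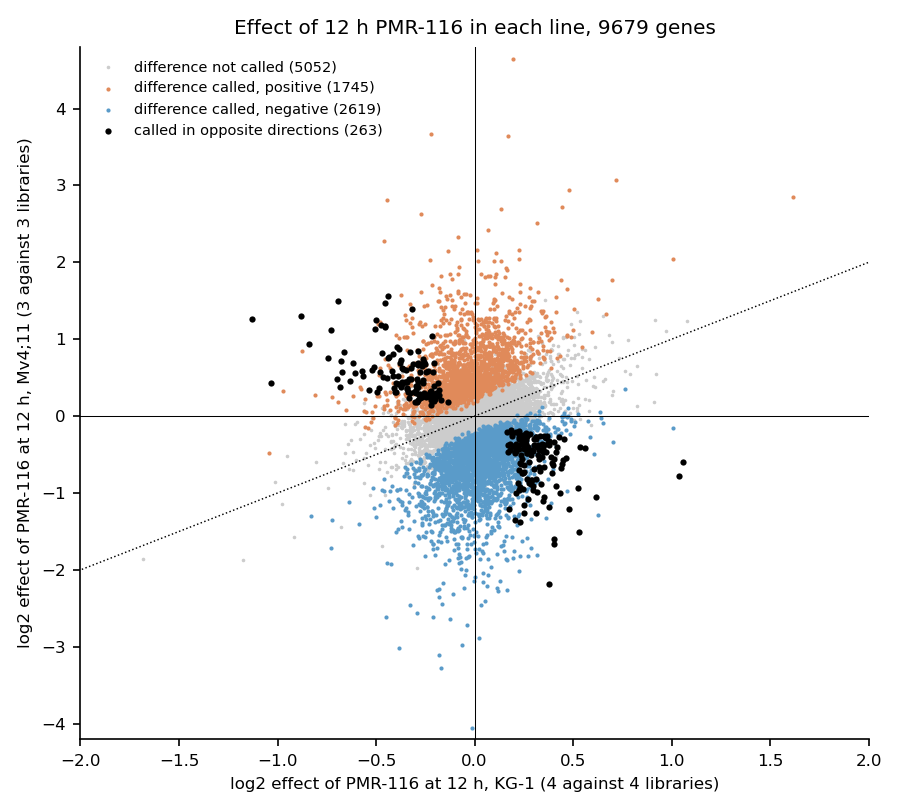
Each of the 9679 genes is a point, with its log2 effect of 12 h PMR-116 in KG-1 on the horizontal axis and in Mv4;11 on the vertical axis. The dotted line marks equal effects and the axes have different ranges. The cloud is stretched along the Mv4;11 axis (783 genes at 2-fold or more against 12 in KG-1), and the black points in the upper left and lower right are the 263 genes called in opposite directions.

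The 263 genes called in opposite directions (2.72% of the 9679, against 1.27% of all genes tested) comprised 121 that rose in Mv4;11 and fell in KG-1, and 142 that fell in Mv4;11 and rose in KG-1. In 193 of them the treated and vehicle libraries did not overlap in either line. All 263 were chosen by their calls in both lines, so this separation is not further support. The 193 genes were 1.99% of the 9679, and the share of genes so separated over all genes tested was not computed. The median absolute effect of the 263 was 0.46 in Mv4;11 and 0.30 in KG-1. The count of 263 rests on the KG-1 calls. In KG-1, libraries with the same replicate number deviated together, and with the replicate number as a block in that line the count was 473, and 538 with a block in both lines. The genes called in KG-1 numbered 1183 without the block, 1822 with it in KG-1 and 1995 with it in both lines. Without KG-1 vehicle replicate 2, 3 or 4 the count of opposite genes was 175, 166 or 157, and 80 of the 263 were opposite under each of the 22 alternative fits.

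Protein-coding genes that rose in Mv4;11 and fell in KG-1, with libraries apart in both lines, were ranked by the smaller of their effects. Separation of the libraries was a condition for entering this ranking and the reverse one. Where it is described for these genes below, it is not added support. The first 8 were HLA-DMA, CFP, SYNE1, IFI35, SORL1, CSF3R, MYO15B and MZF1. HLA-DMA encodes a chain of the molecule that loads peptides onto MHC class II. It was at 6.53, 7.53 and 6.18 CPM in the Mv4;11 vehicle libraries and at 9.21, 11.3 and 13.6 in the treated ones. The KG-1 libraries read 16.6, 15.5, 16.2 and 14.8 CPM with vehicle and at 11.005, 9.36, 8.49 and 8.81 with PMR-116. Every treated library lay above vehicle in Mv4;11 and below vehicle in KG-1. The log2 effects were 0.75 ± 0.13 and -0.75 ± 0.10 (± standard error, here and for every log2 value below), and the difference was 1.497 ± 0.16 (adjusted p = 2.7e-10).

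CSF3R encodes the receptor for granulocyte colony-stimulating factor. Its CPM was 93.4, 90.2 and 89.04 with vehicle and 139, 147 and 154 with PMR-116 in Mv4;11. In KG-1 its level was 72.9, 85.8, 92.7 and 80.8 with vehicle and 47.6, 54.8, 58.5 and 55.9 with PMR-116. The groups were apart in both lines, with effects of 0.69 ± 0.12 and -0.62 ± 0.10 and a difference of 1.30 ± 0.16 (adjusted p = 2.9e-09). IFI35, an interferon-induced gene, was at 10.4, 10.8 and 9.899 against 17.8, 14.6 and 18.95 CPM in Mv4;11 and at 18.8, 15.4, 16.96 and 16.4 against 10.5, 10.7, 9.62 and 11.3 in KG-1, vehicle first. Its difference was 1.40 ± 0.15 (adjusted p = 7.1e-11), from effects of 0.72 ± 0.11 and -0.68 ± 0.094. SORL1, a sorting receptor of the endosome, was at 35.2, 40.5 and 38.5 CPM with vehicle and 58.1, 71.5 and 73.9 with PMR-116 in Mv4;11. KG-1 libraries were at 38.04, 49.8, 34.5 and 44.2 with vehicle and 24.2, 28.2, 26.7 and 25.8 with PMR-116. Treated and vehicle libraries did not overlap in either line, and the difference was 1.5005 ± 0.18 (adjusted p = 4.7e-09).

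SYNE1, which encodes a giant protein linking the nucleus to actin, had the largest difference of the 8. It was at 5.06, 4.25 and 6.96 CPM with vehicle and at 15.8, 15.5 and 14.8 with PMR-116 in Mv4;11. In KG-1, where it was more abundant, it was at 61.7, 48.7, 58.1 and 59.8 with vehicle and at 41.6, 34.1, 28.98 and 36.8 with PMR-116. The effects were 1.497 ± 0.22 and -0.69 ± 0.17 and the difference 2.19 ± 0.27 (adjusted p = 9.1e-09). CFP, which encodes properdin of the alternative complement pathway, had effects of 1.12 ± 0.20 in Mv4;11 and -0.73 ± 0.19 in KG-1, and its treated KG-1 libraries read 6.29, 5.32, 4.87 and 7.89 CPM. Its KG-1 effect missed the threshold without treated KG-1 replicate 3 (adjusted p = 0.075). MYO15B and the myeloid zinc finger gene MZF1 had differences of 1.25 ± 0.22 and 1.15 ± 0.20. The KG-1 effect of MZF1 missed the threshold without KG-1 vehicle replicate 3 (adjusted p = 0.059).

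By the same ranking the first 8 protein-coding genes that fell in Mv4;11 and rose in KG-1 were MAP3K6, TUBA4A, ATF5, ATR, TUBB4B, CENPP, NOLC1 and CENPU. NOLC1, a nucleolar phosphoprotein that assists the particles modifying ribosomal RNA, was at 339.8, 335 and 293 CPM with vehicle and 175, 148 and 159 with PMR-116 in Mv4;11. The KG-1 values were 490.04, 428, 403 and 452 with vehicle and 666, 604, 525 and 596 with PMR-116. All treated libraries lay below vehicle in Mv4;11 and above it in KG-1, with effects of -1.003 ± 0.086 and 0.43 ± 0.074 and a difference of -1.43 ± 0.11 (adjusted p = 2e-14). TUBA4A, an alpha-tubulin gene, was at 73.4, 74.7 and 76.8 against 40.1, 32.8 and 35.4 CPM in Mv4;11 and at 40.5, 41.1, 41.6 and 38.6 against 60.1, 63.4, 58.5 and 66.3 in KG-1, vehicle first. Its effects were -1.05 ± 0.083 and 0.62 ± 0.070, and its difference of -1.67 ± 0.11 had the smallest adjusted p of the 8 (2.5e-17). The beta-tubulin gene TUBB4B moved the same 2 ways, with a difference of -1.07 ± 0.12 (adjusted p = 7.9e-10). Tubulin genes have near-identical copies, so reads may be split among them.

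MAP3K6 and ATF5 had the largest KG-1 effects of this set. MAP3K6, a stress-kinase gene, was at 13.8, 13.98 and 16.4 CPM with vehicle and 9.14, 8.85 and 7.86 with PMR-116 in Mv4;11. It was at 3.72, 4.11, 5.47 and 3.66 with vehicle and 7.15, 6.85, 9.58 and 11.3 with PMR-116 in KG-1. Its effects of -0.77 ± 0.21 and 1.04 ± 0.18 gave a difference of -1.81 ± 0.27 (adjusted p = 6.9e-07). The mean of MAP3K6 reached 5 CPM in KG-1 only with PMR-116, so its rise there follows in part from the filter. ATF5, a transcription factor of the amino acid response, was at 109, 154 and 122 CPM with vehicle against 83.1, 86.3 and 84.2 in Mv4;11 and at 13.5, 13.8, 9.14 and 8.74 against 24.8, 25.5, 21.3 and 22.6 in KG-1. The difference was -1.66 ± 0.25 (adjusted p = 8.8e-07), and the Mv4;11 fall missed the threshold without vehicle replicate 2 of that line (adjusted p = 0.089).

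ATR, the kinase that answers stalled replication forks, was at 63.7, 54.8 and 54.6 CPM with vehicle and 39.6, 39.4 and 39.9 with PMR-116 in Mv4;11. KG-1 libraries read 38.8, 35.05, 36.6 and 33.7 with vehicle and 42.7, 40.001, 57.8 and 58.4 with PMR-116, so treated replicates 1 and 2 lay just above the vehicle range and replicates 3 and 4 well above it. The difference was -1.01 ± 0.16 (adjusted p = 2.6e-06). CENPU, a kinetochore gene, had a difference of -1.32 ± 0.11 (adjusted p = 1.1e-13). For CENPP, also of the kinetochore, the KG-1 rise rested on 1 library: the treated libraries read 29.7, 26.3, 46.98 and 25.9 CPM, and without replicate 3 the adjusted p of the KG-1 effect was 0.46. Of the 16 genes of the 2 sets, 12 were opposite under each of the 22 alternative fits.

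**Figure D2:**
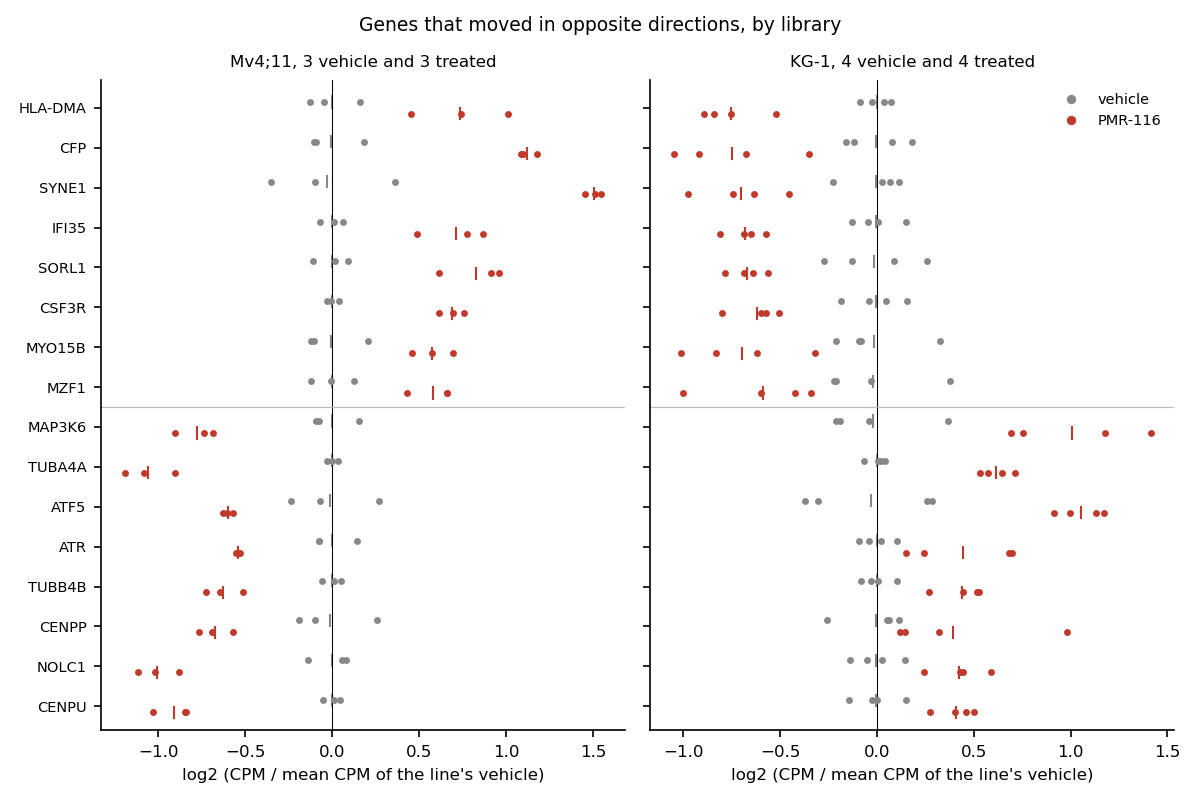
Points are single libraries of the 16 protein-coding genes ranked first by the smaller of their opposite effects, as log2 of CPM over the mean vehicle CPM of the line, with vehicle in grey, PMR-116 in red and a tick at each group's mean, in panels with separate horizontal ranges. Red points lie right of grey in Mv4;11 and left of grey in KG-1 for the upper 8 genes, and the reverse for the lower 8, with 1 high CENPP library in treated KG-1. The genes were chosen for this separation.

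The 37 opposite genes that belong to the gene lists below lay on the side that their list took in Mv4;11, apart from the lysosomal enzyme gene GLA. FDXR, a p53 target in mitochondrial electron transfer, was at 45.8, 47.01 and 46.1 CPM with vehicle and 92.2, 74.7 and 92.7 with PMR-116 in Mv4;11. Its KG-1 values were 11.9, 12.4, 11.7 and 10.7 with vehicle and 9.74, 8.97, 7.89 and 8.97 with PMR-116. Its effects of 0.90 ± 0.097 and -0.39 ± 0.090 gave a difference of 1.29 ± 0.13 (adjusted p = 4e-11). CTSS, a protease that trims the MHC class II chaperone CD74, also rose in Mv4;11 and fell in KG-1, with a difference of 1.26 ± 0.13. HSPD1, the mitochondrial chaperonin, was at 1137, 1019 and 956 CPM with vehicle and 477, 431 and 460.4 with PMR-116 in Mv4;11, and at 821, 633, 639 and 684 with vehicle and 995, 883, 848 and 876 with PMR-116 in KG-1. It fell in the first line and rose in the second, with a difference of -1.56 ± 0.14 (adjusted p = 6.7e-13). PCNA, the sliding clamp of DNA replication, did likewise, with effects of -0.69 ± 0.078 and 0.30 ± 0.067. Of the 37, 14 were opposite under each of the alternative fits, among them FDXR, CTSS, HSPD1, PCNA and the ribosome assembly gene WDR36. For the other 23 the effect in 1 of the lines missed the threshold in at least 1 fit. The highest adjusted p of the KG-1 effect was 0.19 for CALR and 0.20 for CDK4, both without treated replicate 1 of that line. It was 0.21 for RFC3 without KG-1 vehicle replicate 3, and 0.12 for CD74 and 0.15 for HLA-DQB1, without treated replicate 3. Among the others held in part were CANX, CCNA2, CSF2RA, HSP90AB1, INCENP, IRF7, IRF9, MRPL13, ORC6, PSMB9, SENP3 and SPC25 for KG-1, and ATF5, GLA, KIF11, RUNX1 and SEC61B for Mv4;11.

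Most of the protein-coding genes with the largest positive differences had a mean below 5 CPM in Mv4;11 with vehicle and above it with PMR-116. H2AC6, a replication-dependent histone H2A gene, was at 1.27, 3.31 and 2.04 CPM with vehicle and 48.4, 65.7 and 49.2 with PMR-116 in Mv4;11. In KG-1 it was at 4.03, 6.62, 6.49 and 4.85 with vehicle and 5.68, 6.98, 5.74 and 6.72 with PMR-116, where the groups overlapped. The effects were 4.64 ± 0.29 and 0.19 ± 0.21 and the difference 4.45 ± 0.35 (adjusted p = 1.4e-14), the highest of all 9679 genes. Histone genes have near-identical copies, so the read assignment is uncertain. The kit enriches polyadenylated RNA, so these values count polyadenylated transcripts of the gene and may not follow its whole output.

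DNASE2 encodes the acid DNase of the lysosome. Its CPM was 2.08, 1.56 and 2.49 with vehicle and 22.2, 22.9 and 33.7 with PMR-116 in Mv4;11. It was 44.7, 40.5, 34.04 and 37.2 with vehicle and 35.9, 34.01, 30.8 and 33.6 with PMR-116 in KG-1, where the groups overlapped. The treated Mv4;11 level came nearer to that of KG-1, with a difference of 3.89 ± 0.25 (adjusted p = 1.2e-17). CD86, a costimulatory ligand of antigen-presenting cells, was at 1.06, 0.616 and 1.48 CPM with vehicle and 13.5, 11.7 and 15.1 with PMR-116 in Mv4;11, far below the 128, 125, 115 and 113 of the KG-1 vehicle libraries. Its KG-1 effect of 0.17 ± 0.11 did not pass the test, and the difference was 3.48 ± 0.22 (adjusted p = 2.2e-17). ENPP2, which encodes the lysophospholipase autotaxin, was at 16.5, 14.96 and 17.8 against 104, 113 and 127 CPM in Mv4;11, vehicle first. In KG-1 its libraries ranged widely within each group, 9.04, 8.01, 4.25 and 3.38 with vehicle and 5.48, 6.32, 3.12 and 3.28 with PMR-116, and the difference was 3.25 ± 0.49 (adjusted p = 5.1e-07). NHSL2, CDH23, the phosphodiesterase gene PDE4B and the actin gene ACTA2 completed the 8, with differences of 2.90 ± 0.32, 2.74 ± 0.32, 2.55 ± 0.35 and 2.46 ± 0.27. H2AC6, DNASE2, CD86, NHSL2, CDH23, PDE4B and ACTA2 reached 5 CPM in Mv4;11 only with PMR-116, so their direction follows in part from the filter.

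Among protein-coding genes the largest negative differences were led by lipid synthesis and DNA replication genes. DHCR7, the enzyme of the last step of cholesterol synthesis, was at 18.6, 24.3 and 25.0004 CPM with vehicle and 3.38, 1.21 and 2.29 with PMR-116 in Mv4;11. KG-1 values were 129, 135, 119 and 124 with vehicle and 117, 119, 99.3 and 115 with PMR-116. The treated libraries lay below vehicle in both lines, with effects of -3.28 ± 0.22 and -0.17 ± 0.14, of which the first passed the test. The difference was -3.11 ± 0.26 (adjusted p = 8.2e-14). DHCR7 reached 5 CPM in Mv4;11 only with vehicle, so its direction follows in part from the filter. SCD, the desaturase that makes monounsaturated fatty acids, was at 404, 411 and 351 against 62.1, 63.2 and 52.04 CPM in Mv4;11 and at 686, 758, 654 and 703 against 642, 715, 679 and 688 in KG-1, vehicle first. Its difference was -2.68 ± 0.15 (adjusted p = 2.6e-19), from groups far apart in Mv4;11 and overlapping in KG-1. FADS2, a desaturase of polyunsaturated fatty acids, fell in both lines, with effects of -3.01 ± 0.12 and -0.38 ± 0.094 and a difference of -2.63 ± 0.15. Its KG-1 fall missed the threshold with only the 14 libraries fitted (adjusted p = 0.075).

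MCM6 encodes a subunit of the replicative helicase. Its CPM was 369.6, 360.2 and 320.2 with vehicle and 70.7, 62.3 and 57.9 with PMR-116 in Mv4;11. In KG-1 its libraries were at 533, 481, 439.8 and 469 with vehicle and 514, 529.8, 444 and 479 with PMR-116, and the groups overlapped. The difference was -2.49 ± 0.11 (adjusted p = 1.2e-23). UNG, which removes uracil from DNA, was at 96.6, 97.001 and 90.9 against 12.5, 11.1 and 12.4 CPM in Mv4;11, with no called change in KG-1 (-0.06 ± 0.077) and a difference of -2.92 ± 0.13 (adjusted p = 1.2e-23). SLC38A5, a glutamine transporter, and RPL22L1, a paralogue of the ribosomal protein gene RPL22, had differences of -2.93 ± 0.13 and -2.51 ± 0.16. The mean of SLC38A5 reached 5 CPM in Mv4;11 only with vehicle, so its direction too follows in part from the filter. PLCXD1 fell in Mv4;11 and rose in KG-1, by -2.18 ± 0.12 and 0.38 ± 0.095. Its KG-1 call was lost without KG-1 vehicle replicate 1 (adjusted p = 0.060) or treated replicate 4 (adjusted p = 0.052).

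**Figure D3:**
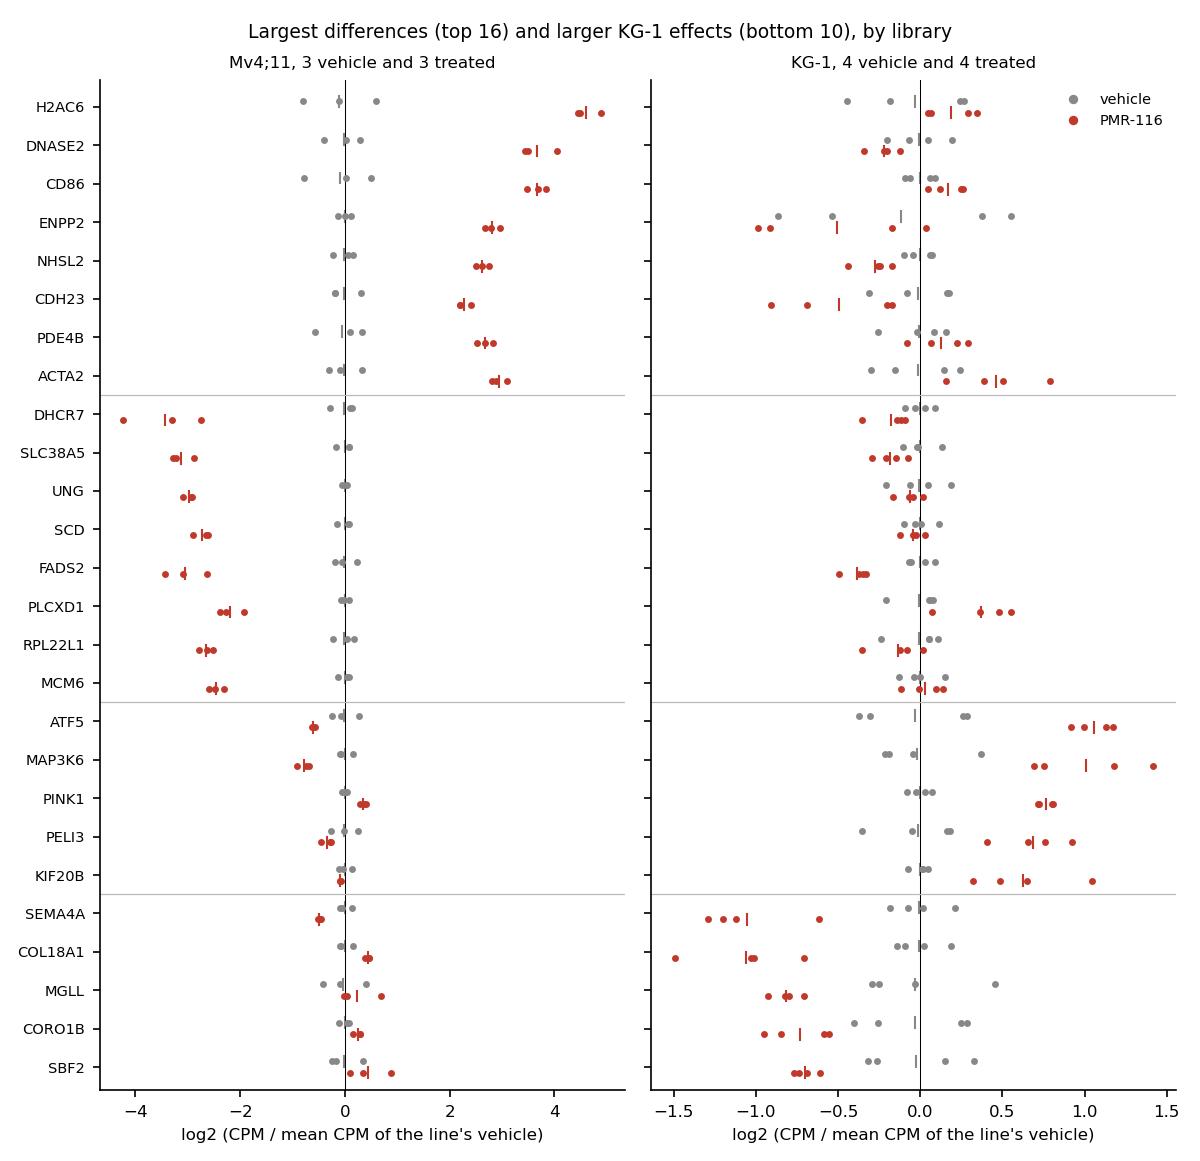
Points are single libraries, as log2 of CPM over the mean vehicle CPM of the line, for the 8 largest positive and 8 largest negative differences (upper blocks) and for 5 genes that rose and 5 that fell more in KG-1 (lower blocks), all protein-coding, with ticks at group means and separate panel ranges. The treated Mv4;11 libraries of the upper 16 genes lie far from vehicle on the side of the difference, while those of KG-1 lie near their vehicles. Genes of the upper blocks were chosen with libraries apart in Mv4;11, and those of the lower blocks with libraries apart in KG-1.

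Of the 9679 genes, 19.3% had a called positive and 28.5% a called negative difference. Called effects rose for 25.6% and fell for 33.1% of the 9679 genes in Mv4;11, and for 5.97% and 6.25% in KG-1. The counts of each list below can be set against these shares. Genes of DNA replication and G1/S gave the lowest median difference among lists of more than 10 genes. All 61 members had a called negative difference (median -1.38, against -0.04 over the 9679 genes), and 60 of them fell in Mv4;11. In KG-1, 4 rose and 3 fell, with a median effect of 0.04. MCM2, a helicase subunit, was at 435, 445 and 412 CPM with vehicle and 105, 99.5 and 104 with PMR-116 in Mv4;11, and at 778, 713, 684 and 733 against 767, 698, 660.0000 and 681 in KG-1. Its difference of -2.01 ± 0.075 had the smallest adjusted p of the list (8.5e-26). ORC6, PCNA and RFC3 were called in opposite directions. Of the 55 DNA damage response genes, several of which act in replication, 39 had a negative and 3 a positive difference (median -0.80). They included CHEK1, the checkpoint kinase downstream of ATR (-1.75 ± 0.087). The 63 G2/M and mitosis genes had 47 negative and no positive calls, at a smaller median of -0.48, led by MYBL2 (-1.93 ± 0.10) and CDC25A (-2.04 ± 0.15).

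Ribosome biogenesis factors, the genes closest to the process that RNA polymerase I serves, differed in 90 of 100 members, all negative (median -0.71). In Mv4;11, 91 fell and 1 rose. In KG-1, 3 fell and 4 rose, with a median of 0.02. NOP56, a core protein of box C/D particles (-1.24 ± 0.090), and TCOF1, which couples transcription of ribosomal RNA genes to their processing (-1.07 ± 0.086), were among those with the smallest p. WDR36, SENP3 and NOLC1 fell in Mv4;11 and rose in KG-1. In the list of polymerase I subunits and factors, 14 of 21 differed, all negative (median -0.50). POLR1A, which encodes the largest subunit of the enzyme, was at 165, 139 and 161 CPM with vehicle and 81.9998, 77.5 and 78.002 with PMR-116 in Mv4;11. The KG-1 libraries were at 239.9, 192, 211 and 213 with vehicle and 226, 202, 191 and 214 with PMR-116. It fell in Mv4;11, the groups overlapped in KG-1, and the difference was -0.93 ± 0.11 (adjusted p = 6e-09). POLR1E, a smaller subunit, fell in both lines without overlap (-1.15 ± 0.079 and -0.27 ± 0.065) and differed by -0.88 ± 0.10. POLR1B, the second largest subunit, differed by -0.82 ± 0.15, and RRN3, the initiation factor that recruits the polymerase, by -0.32 ± 0.088. UBTF, which marks active ribosomal RNA genes, fell in both lines (-0.30 ± 0.066 and -0.20 ± 0.057). The KG-1 fall missed the threshold without treated replicate 3 (adjusted p = 0.12). Its difference of -0.10 ± 0.087 did not pass (adjusted p = 0.5, 95% interval -0.27 to 0.07). Cytosolic ribosomal protein genes had few called differences, 3 positive and 2 negative of 79 (median 0.07). With library totals 29 were positive and none negative, and with TMM within each line none was positive and 5 were negative. By line in the main fit, 3 rose and 15 fell in Mv4;11, and none rose and 20 fell in KG-1. The median effects were -0.06 and -0.13.

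MYC was at 451, 491 and 434 CPM with vehicle and 236, 200.3 and 205 with PMR-116 in Mv4;11. In KG-1, where its level was higher, it was at 1021, 1219, 966 and 998 with vehicle and 961, 1089, 809 and 883 with PMR-116. It fell in Mv4;11 (-1.10 ± 0.11), the KG-1 effect of -0.17 ± 0.090 did not pass, and the difference was -0.93 ± 0.14 (adjusted p = 3.8e-07). Among 46 genes of the MYC network and its targets, 35 differences were negative and 2 positive (median -0.80). CDK4, a kinase of G1 progression, was called in opposite directions (-1.35 ± 0.072 and 0.20 ± 0.060), as were ODC1, which starts polyamine synthesis, and HSPD1. The purine synthesis gene PAICS differed by -1.90 ± 0.10 and the pyrimidine synthesis gene CAD by -1.47 ± 0.097. Nucleotide and folate genes as a list had 25 negative and 1 positive difference of 29 (median -0.87), with MTHFD1 of the folate cycle at -1.80 ± 0.077.

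Gene lists of lipid, amino acid and sugar metabolism also had mostly negative differences. Of 33 cholesterol and fatty acid synthesis genes, 28 had a negative and 1 a positive difference (median -0.997). Of the 33, 3 reached 5 CPM in Mv4;11 only with vehicle. HMGCS1, which makes the precursor of mevalonate, was at 67.2, 67.7 and 62.1 CPM with vehicle and 22.2, 21.4 and 21.9 with PMR-116 in Mv4;11, and at 109, 120.005, 102 and 113 against 120.4, 132, 141 and 139.8 in KG-1. Its treated libraries lay below vehicle in Mv4;11 and above it in KG-1, replicate 1 only just. The KG-1 effect of 0.27 ± 0.13 did not pass the test, and the difference was -1.86 ± 0.20 (adjusted p = 3.6e-10). ATF4 and amino acid response genes had 23 negative and 3 positive differences of 38 (median -0.70), led by CBS (-2.21 ± 0.17) and PYCR1 (-1.72 ± 0.14). CBS reached 5 CPM in Mv4;11 only with vehicle, so its fall there follows in part from the filter. Glycolysis genes had 16 negative and 1 positive of 25 (median -0.76), led by LDHA (-1.91 ± 0.12).

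Most chaperone genes fell in Mv4;11, and fewer were called in KG-1, where those called rose. Of 23 heat shock genes, 21 differences were negative and none positive (median -1.09). In Mv4;11, 21 fell, and in KG-1, 2 rose and none fell. FKBP4, a co-chaperone of HSP90, was at 216, 206 and 197 CPM with vehicle and 59.8, 43.3 and 50.6 with PMR-116 in Mv4;11, and at 742, 707, 669 and 723 with vehicle and 876, 818, 788 and 842 with PMR-116 in KG-1. All treated libraries lay below vehicle in the first line and above it in the second, but the KG-1 effect of 0.23 ± 0.080 did not pass (adjusted p = 0.082). With the replicate number as a block in KG-1 it did (adjusted p = 0.016). Its difference was -2.24 ± 0.13. HSP90AB1 and HSPD1 were called in opposite directions. Of 28 unfolded protein response genes, 21 differences were negative and 1 positive (median -0.62). In Mv4;11, 22 fell, and in KG-1, 6 rose and none fell. CALR, the calcium-binding chaperone calreticulin, was at 1232, 1142 and 1021 against 510.2, 426 and 484 CPM in Mv4;11 and at 907, 756, 715 and 769.6 against 1087, 985, 869.5 and 965 in KG-1, vehicle first. Its difference was -1.57 ± 0.15, and its KG-1 rise was only just called (adjusted p = 0.045). HSP90B1, CANX and SEC61B were also called in opposite directions.

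Mitochondrial genes showed negative differences from both genomes. Mitochondrial ribosomal protein genes had 49 negative and 1 positive of 77 (median -0.35). Of the 13 mRNAs of the mitochondrial genome, 12 had a negative difference (median -0.68, and -0.81 without Mv4;11 vehicle replicate 3). MT-ND4, a subunit of complex I, fell in both lines (-1.19 ± 0.085 and -0.51 ± 0.073) and differed by -0.68 ± 0.11. The mitochondrial ribosomal RNA MT-RNR1 was at 304 and 330 CPM in Mv4;11 vehicle replicates 1 and 2 and at 1094 to 1121 with PMR-116. Vehicle replicate 3, at 2394, lay above every treated library, so the groups overlapped and no direction is read for Mv4;11. In KG-1 MT-RNR1 was at 498 to 654 with vehicle and 887 to 1175 with PMR-116. Its part in the mRNA result was not tested.

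Promoter stretches of 5 genes of these lists, and of RSAD2 from the interferon-stimulated list described next, are shown because each holds a short motif that was found in a larger share of its list's windows than of all windows. Each is a 120-base stretch around the motif, taken from the window around the gene's most upstream RefSeq start (GRCh38.p14), and is given 5′ to 3′ in the direction of transcription. The motif is in capitals, read on either strand.
MCM6 promoter: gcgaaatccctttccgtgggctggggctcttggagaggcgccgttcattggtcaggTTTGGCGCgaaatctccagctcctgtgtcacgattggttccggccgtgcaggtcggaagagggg
RFC3 promoter: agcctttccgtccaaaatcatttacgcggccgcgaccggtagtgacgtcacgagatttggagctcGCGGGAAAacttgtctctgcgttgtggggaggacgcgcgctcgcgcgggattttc
HSPD1 promoter: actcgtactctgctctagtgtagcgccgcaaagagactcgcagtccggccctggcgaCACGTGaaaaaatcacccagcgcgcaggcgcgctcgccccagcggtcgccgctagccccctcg
CALR promoter: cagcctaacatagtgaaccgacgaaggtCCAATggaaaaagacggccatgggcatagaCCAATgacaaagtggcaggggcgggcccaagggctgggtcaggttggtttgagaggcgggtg
AARS1 promoter: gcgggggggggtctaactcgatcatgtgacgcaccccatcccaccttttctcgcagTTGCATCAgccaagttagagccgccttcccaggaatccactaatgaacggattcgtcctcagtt
RSAD2 promoter: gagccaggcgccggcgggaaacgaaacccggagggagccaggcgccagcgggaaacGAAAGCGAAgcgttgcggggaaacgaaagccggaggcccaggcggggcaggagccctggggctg
The stretches lie at chr2:135876470-135876589 on the minus strand (MCM6), chr13:33818029-33818148 on the plus strand (RFC3), chr2:197500300-197500419 on the minus strand (HSPD1), chr19:12938457-12938576 on the plus strand (CALR), chr16:70289630-70289749 on the minus strand (AARS1) and chr2:6865750-6865869 on the plus strand (RSAD2).

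Windows from 250 bases before to 50 after a start were searched on both strands in 35116 RefSeq windows, of which 11180 belong to 7745 of the 9679 genes. TTTGGCGC, a form of the E2F motif shown for MCM6, was in 15.2% of the 66 windows of replication genes and in 0.652% of all windows. TTTCCCGC, another E2F form, shown for RFC3 on the reverse strand, was in 18.2% against 1.63%. The E-box CACGTG, which MYC can bind and which HSPD1 carries, was in 26.5% of windows of the MYC list, 36.6% of those of ribosome biogenesis factors and 7.26% of all. The CCAAT box, doubled in CALR, was in 75.8% of unfolded protein response, 71.4% of lipid synthesis and 69.4% of G2/M windows, against 34.6% of all. TTGCATCA, an amino acid response core shown for AARS1, was in 16.7% of the ATF4 list against 0.866%. GAANNTTC, a heat shock core, was in 36.4% of heat shock windows against 6.77%. GAAANNGAA, an interferon response core shown for RSAD2, was in 53.1% of interferon-stimulated gene windows against 8.11%. In the 11180 windows of the analysed genes the shares were 1.11% for TTTGGCGC, 2.73% for TTTCCCGC, 9.93% for CACGTG and 35.3% for CCAAT. They were 0.483% for TTGCATCA, 4.71% for GAANNTTC and 6.74% for GAAANNGAA. The lists were drawn up by function, so shares within them describe their members and not the response, and a match is not a bound site. Both E2F forms were counted apart, and no searched motif other than CACGTG lies within another: it is the centre of TCACGTGA. That longer form was found in 17.6% of lysosome gene windows, 0.980% of all windows and 1.89% of windows of the analysed genes.

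Of 35 p53 target genes, 22 differences were positive and none negative (median 0.62). In Mv4;11, 25 rose and none fell, and in KG-1, 3 rose and 1 fell. MDM2, the ligase that degrades p53 and is itself a p53 target, was at 132, 112 and 143 CPM with vehicle and 274, 237 and 295 with PMR-116 in Mv4;11. It was at 54.4, 54.3, 47.2 and 46.98 with vehicle and 49.5, 52.2, 58.01 and 50.1 with PMR-116 in KG-1, where the groups overlapped. The difference was 1.01 ± 0.13 (adjusted p = 1.4e-08). ZMAT3, an RNA-binding p53 target, and CMBL differed by 1.69 ± 0.15 and 2.29 ± 0.23, with all treated Mv4;11 libraries above and all treated KG-1 libraries below their vehicles. CMBL and 1 other member of the list reached 5 CPM in Mv4;11 with PMR-116 only, so their rise there follows in part from the filter. TRIM22, which restricts viruses and is both a p53 and an interferon target, had the smallest p of either list. It was at 105, 114 and 106 CPM with vehicle and 287, 277 and 266 with PMR-116 in Mv4;11, against 75.3, 79.8, 67.2 and 72.3 and 70.1, 82.5, 62.6 and 71.3 in KG-1. The groups were far apart in Mv4;11 and overlapped in KG-1, and the difference was 1.39 ± 0.11 (adjusted p = 6e-15). CDKN1A was not among the 9679 genes.

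Interferon-stimulated genes had 22 positive and no negative differences of 29 (median 0.83). In Mv4;11, 25 rose and 2 fell, and in KG-1, 2 rose and 6 fell. Of the 29, 6 reached 5 CPM in Mv4;11 with PMR-116 only, RSAD2 among them, so their rise there follows in part from the filter. RSAD2, the antiviral enzyme viperin, was at 2.41, 1.98 and 1.29 CPM with vehicle and 6.82, 6.48 and 5.17 with PMR-116 in Mv4;11. It was more abundant in KG-1, at 102, 102, 96.7 and 109 with vehicle and 84.2, 92.7, 84.9 and 91.2 with PMR-116. The treated libraries lay above vehicle in the first line and below it in the second, and only the Mv4;11 effect was called (difference 1.92 ± 0.21). STAT2, which carries the interferon signal, rose in Mv4;11 and differed by 1.37 ± 0.14. IFI35, IRF7, IRF9 and the immunoproteasome gene PSMB9 were called in opposite directions. IRF9, the DNA-binding partner of STAT2, was at 13.4, 14.5 and 12.6 against 23.4, 24.8 and 23.8 CPM in Mv4;11 and at 20.5, 19.5, 20.6 and 17.82 against 13.5, 15.5, 17.77 and 15.6 in KG-1, vehicle first. Its groups were apart in both lines, in KG-1 by 1 close pair of libraries, but the KG-1 call (adjusted p = 0.034) and that of IRF7 (adjusted p = 0.049) were lost in many alternative fits.

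Of 10 MHC class II genes, which present peptides to helper T cells, 7 differences were positive and 1 negative (median 0.65), and 5 rose in Mv4;11 while 6 fell and none rose in KG-1. CIITA, the master activator of the class, was at 21.7, 20.3 and 27.2 CPM with vehicle and 67.97, 85.1 and 85.01 with PMR-116 in Mv4;11. It was at 53.7, 61.8, 65.4 and 58.3 with vehicle and 52.4, 51.97, 60.9 and 55.3 with PMR-116 in KG-1, with overlapping groups. Its difference was 1.90 ± 0.18 (adjusted p = 2.3e-12). CD74, the chaperone of the class, was at 322, 355 and 280.2 against 458, 466 and 495 CPM in Mv4;11 and at 377, 419, 371 and 389 against 335, 353, 295 and 329.7 in KG-1, vehicle first. CD74, HLA-DQB1 and HLA-DMA were called in opposite directions. HLA-DQB1 is polymorphic with close paralogues, so its read assignment is uncertain.

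Lysosome and autophagy genes had 24 positive and 3 negative differences of 37 (median 0.46), with 3 members that reached 5 CPM in Mv4;11 with PMR-116 only. CTSB, a lysosomal protease, was at 174, 181 and 174 CPM with vehicle and 430.3, 403 and 437 with PMR-116 in Mv4;11, and at 86.2, 89.5, 79.3 and 78.9 with vehicle and 80.8, 84.1, 66.2 and 75.8 with PMR-116 in KG-1. It rose in Mv4;11, its KG-1 effect of -0.12 ± 0.072 did not pass, and it differed by 1.39 ± 0.11 (adjusted p = 2.2e-14). Monocyte and granulocyte differentiation genes had 10 positive and 1 negative of 20 (median 0.59), also with 3 such members. They included CD86, the Fc receptor gene FCGR2A (1.19 ± 0.11) and the factor CEBPB (1.12 ± 0.13), and CSF3R and CSF2RA were called in opposite directions. Not all such genes went that way: LYZ fell in Mv4;11 (-0.46 ± 0.10) and its difference of -0.21 ± 0.15 did not pass. Stem cell and leukaemia genes had 8 positive and 1 negative of 17 (median 0.38), with the haematopoietic factor gene LMO2 at 0.91 ± 0.11, the homeobox gene HOXA9 at 0.83 ± 0.11 and SOX4 at -0.81 ± 0.13. LMO2 was at 176, 185 and 156 CPM with vehicle and 309, 278 and 287 with PMR-116 in Mv4;11, and at 69.6, 70.4, 66.8 and 70.1 against 65.6, 68.6, 58.3 and 57.3 in KG-1. Immediate-early genes had 7 positive and none negative of 16 (median 0.34), led by IER5 (1.14 ± 0.092) and BTG2 (1.33 ± 0.12), which is also a p53 target. The 3 replication-dependent histone genes that reached the minimum, of 59 in the list, had positive differences: H2AC6, H2BC12 (2.25 ± 0.21) and H1-2 (1.65 ± 0.26). As for H2AC6 above, only their polyadenylated transcripts are enriched by the kit. H2AC6 reached 5 CPM in Mv4;11 with PMR-116 only, so its rise there follows in part from the filter. The Mv4;11 vehicle libraries of H2BC12 read 4.05, 4.44 and 8.84 CPM and those of H1-2 4.66, 4.48 and 8.75, with replicate 3 the highest for both.

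Other lists were divided or had few calls. For comparison, 19.3% of all the genes kept had a called positive difference and 28.5% a called negative one. Whether any of these lists departs from those shares was not tested. NF-kB and cytokine genes had 4 positive and 2 negative differences of 17 (median 0.01, and -0.08 with TMM within each line), with IL1B at 1.06 ± 0.15 and SOD2 at -0.56 ± 0.094. Of the 17, 3 reached a mean of 5 CPM in Mv4;11 only with PMR-116, IL1B among them. Their rise there follows in part from the filter. FLT3, STAT5 and MAPK feedback genes had 4 of each of 18, with the MAPK phosphatase genes DUSP10 and DUSP6 at 0.96 ± 0.13 and 1.07 ± 0.18 and the MAPK target ETV4 at -1.24 ± 0.19. ETV4 reached 5 CPM in Mv4;11 only with vehicle, so its fall there follows in part from the filter. FLT3 itself was at 417, 369 and 352 CPM with vehicle and 353, 298 and 320.3 with PMR-116 in Mv4;11, with overlapping groups and no called difference (-0.28 ± 0.15, 95% interval -0.59 to 0.02). BCL2 family genes had 3 of each of 15, with BBC3, the p53-induced killer protein PUMA, at 0.96 ± 0.23 and the antiapoptotic MCL1 at 0.41 ± 0.10. HEXIM1 and P-TEFb regulators had 2 positive of 15 (median 0.10, and -0.08 without treated KG-1 replicate 2). HEXIM1, an inhibitor of that kinase, rose in both lines (0.79 ± 0.072 and 0.29 ± 0.062) and more in Mv4;11 (0.502 ± 0.094). snoRNA host genes had 1 positive and 8 negative of 24 (median -0.14). Of 7 abundant noncoding RNAs, 1 was positive and 3 negative, but the differences of RN7SL2 and RN7SK, both negative, were not called without Mv4;11 vehicle replicate 3, and the list's median went from -1.68 to 0.35. NEAT1, the scaffold of paraspeckles, rose in Mv4;11 and differed by 1.84 ± 0.30.

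**Figure D4:**
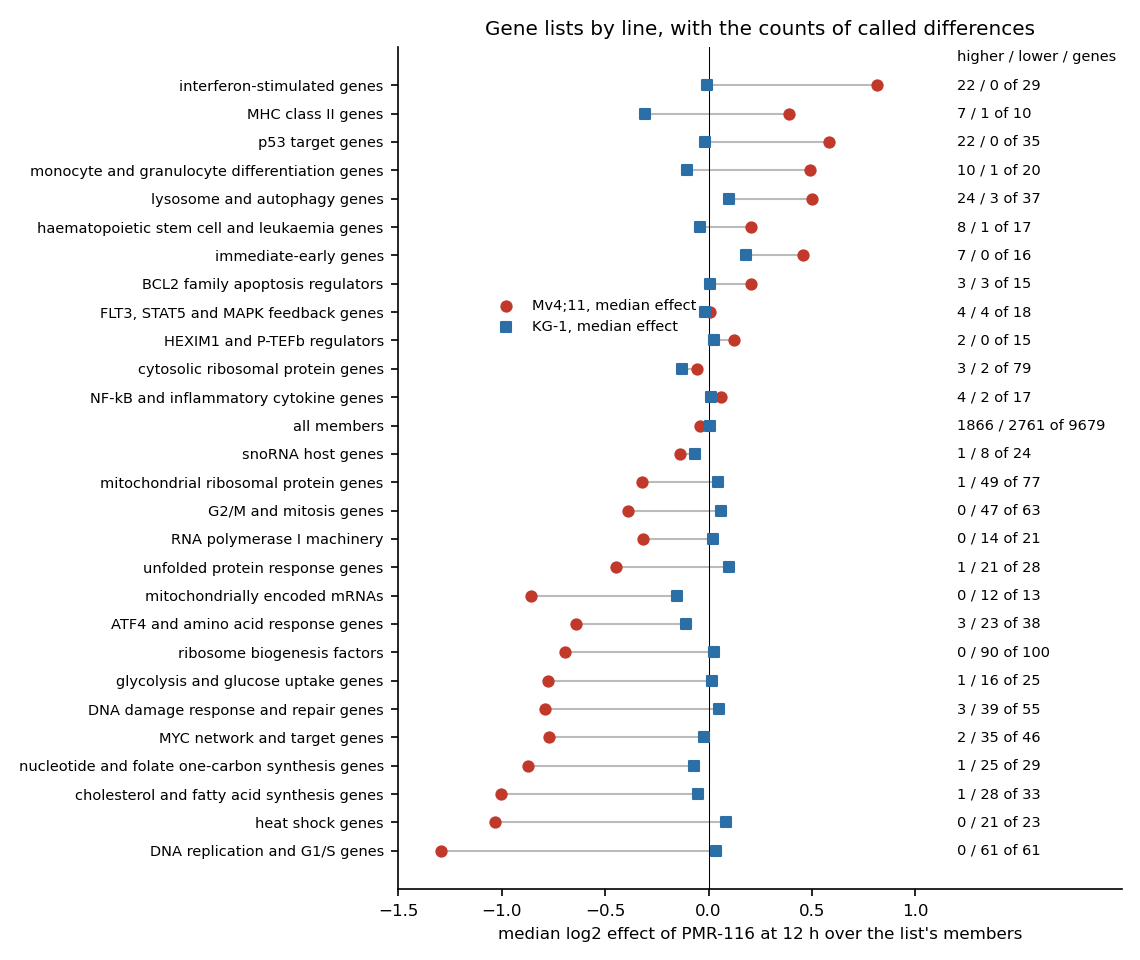
For each list with at least 10 measured genes, the circle is the median log2 effect of PMR-116 in Mv4;11 and the square that in KG-1, and the figures at the right give called positive and negative differences of the number of genes. Squares stay near 0, from -0.31 for MHC class II to 0.18 for immediate-early genes, while circles run from -1.29 for DNA replication to 0.82 for interferon-stimulated genes.

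A smaller set of genes responded more in KG-1: 249 had a called difference, a called KG-1 effect and the larger effect in that line. ATF5 and MAP3K6, described above, had the largest rises. PINK1, a kinase that marks damaged mitochondria, rose in both lines. It was at 70.2, 68.7 and 65.9 CPM with vehicle and 87.6, 82.9 and 90.3 with PMR-116 in Mv4;11. It was at 18.9, 21.1, 19.7 and 20.4 with vehicle and 33.1, 34.9, 32.97 and 35.04 with PMR-116 in KG-1. The groups were apart in both lines, with effects of 0.35 ± 0.068 and 0.76 ± 0.060 and a difference of -0.42 ± 0.090 (adjusted p = 0.0003). PELI3, a ubiquitin ligase of innate signalling, and KIF20B, a kinesin of cell division, rose in KG-1 (0.70 ± 0.15 and 0.65 ± 0.13) with no called effect in Mv4;11. The mean of PELI3 reached 5 CPM in KG-1 only with PMR-116, so its rise there follows in part from the filter.

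Among the genes that fell most in KG-1, COL18A1, a collagen gene, was at 15.9, 16.5, 20.05 and 17.9 CPM with vehicle and 8.63, 6.25, 10.8 and 8.74 with PMR-116 in that line. In Mv4;11 it was at 30.2, 35.4 and 29.8 with vehicle and 43.5, 41.8 and 43.5 with PMR-116, so it rose there, and the difference was 1.47 ± 0.22 (adjusted p = 6.5e-07). Its Mv4;11 rise (adjusted p = 0.035) missed the threshold in most of the 22 alternative fits. The adjusted p was 0.14 without Mv4;11 vehicle replicate 3, 0.063 with only the 14 libraries and 0.099 with TMM within each line. SEMA4A, a semaphorin gene, fell in both lines (-0.49 ± 0.13 and -1.04 ± 0.14) and differed by 0.56 ± 0.19 (adjusted p = 0.028), a call lost in 14 of the 22 alternative fits. MGLL, which breaks down monoacylglycerols, CORO1B, a regulator of actin, and SBF2 fell in KG-1 (-0.81 ± 0.16, -0.72 ± 0.18 and -0.70 ± 0.15), with differences of 1.08 ± 0.24, 0.97 ± 0.26 and 1.18 ± 0.24. The means of SEMA4A and MGLL reached 5 CPM in KG-1 only with vehicle, so their fall there follows in part from the filter.

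Some genes moved alike in both lines. For 265 genes both effects were called in the same direction and the 95% interval of the difference stayed within ±0.5. H3-3B, which encodes the replication-independent histone H3.3, was at 381, 376 and 319.7 CPM with vehicle and 554, 545 and 520.2 with PMR-116 in Mv4;11. It was at 381, 373, 340.2 and 349 with vehicle and 621, 673, 548 and 609 with PMR-116 in KG-1. It rose in both, by 0.59 ± 0.068 and 0.76 ± 0.059, with a difference of -0.17 ± 0.089 (adjusted p = 0.16, and 0.034 with the replicate number as a block in KG-1). TST, a mitochondrial sulfurtransferase, rose by 0.65 ± 0.097 and 0.83 ± 0.084 (95% interval of the difference -0.42 to 0.08). RWDD2B, AACS and MRPL45 completed the 5 largest shared rises, with differences of 0.08, -0.10 and 0.04. SARS2, the mitochondrial seryl-tRNA synthetase, was at 48.4, 45.03 and 48.3 against 33.4, 29.6 and 30.9 CPM in Mv4;11 and at 47.1, 45.7, 46.5 and 45.999 against 34.9, 30.9, 32.2 and 34.9 in KG-1, vehicle first. It fell in both lines without overlap, with a difference of -0.11 ± 0.087 (95% interval -0.28 to 0.06). HDDC2, INO80D, ZHX3 and TMEM159 were the other large shared falls, with differences of 0.03, -0.09, -0.20 and 0.07.

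The same contrast was formed for 1 µM CX-5461 at 12 h and for 1 µM PMR-116 at 3 h. Each has its own treated and vehicle libraries, so no library is shared with the 12 h PMR-116 contrast. For CX-5461 at 12 h the difference of effects was called for 3050 of the 9679 genes, against 16.2% of all genes tested. Of the 4627 genes with a called difference for PMR-116, 97.7% had the same sign with CX-5461, against 85.2% over all 9679. All 2709 of them that were also called with CX-5461 kept the sign. The median size was smaller, 0.39 against 0.59, and the differences correlated across genes with r = 0.884. Of the 263 opposite genes, 262 had the same sign and 223 a called difference with CX-5461, but only 27 were again called in opposite directions. The line contrast for HLA-DMA was 1.497 with PMR-116 and 1.08 with CX-5461 (adjusted p = 1.4e-06), for NOLC1 -1.43 and -0.76 (adjusted p = 1.1e-06), and for MDM2 1.01 and 1.66 (adjusted p = 4.3e-14). POLR1A differed with PMR-116 and not by the test with CX-5461 (-0.28, adjusted p = 0.095). Whether the 2 compounds differ in this contrast was not tested.

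At 3 h of PMR-116 the difference was called for 1174 of the genes, against 6.94% of all genes tested. Of the 4627 genes, 74.3% had the same sign at 3 h, against 65.9% over all 9679, and of the 790 called there 723 had the same sign and 67 the other (r = 0.412 across genes). The MYC difference was -1.67 at 3 h (adjusted p = 2.3e-12) and -0.93 at 12 h, and that of MDM2 1.40 (adjusted p = 5.1e-11) and 1.01. Of the 35 p53 targets, 26 differences were positive and 1 negative at 3 h, with a median of 0.73, against 0.62 at 12 h. Of the 61 replication genes, 1 was positive and 5 were negative at 3 h, with a median of -0.07, against -1.38 at 12 h, and MCM6 was at -0.09 (adjusted p = 0.74). Of the 100 ribosome biogenesis factors, 44 were negative and none positive at 3 h, with medians of -0.31 and -0.71. The interferon list went from 0.11 to 0.83 and heat shock genes from -0.21 to -1.09. Of the 263 opposite genes, 166 (63.1%) had the same sign at 3 h and 30 a called difference, a share of signs below that over all the genes. The change between the times was not tested.

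**Figure D5:**
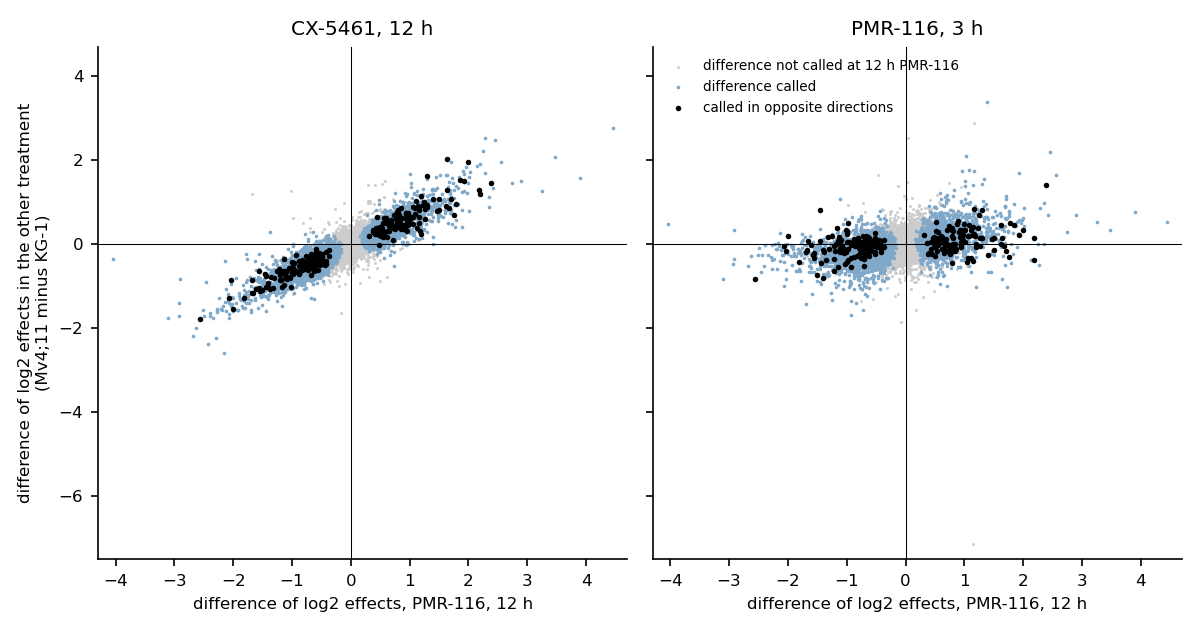
For each of 9679 genes the difference of effects between the lines at 12 h of PMR-116 is on the horizontal axis, and the same difference for CX-5461 at 12 h (left) or PMR-116 at 3 h (right) is on the vertical axis, in log2 units. Points follow a line in the left panel (r = 0.884) and spread around the horizontal in the right one (r = 0.412), where SFT2D3 lies lowest at -7.14 without a called difference.

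The vehicle levels of the lines were compared over the same classes. The median log2 ratio of Mv4;11 to KG-1 vehicle CPM was -0.16 over the 9679 genes, -0.38 over the positive and -0.16 over the negative differences. It was -0.38 over the opposite genes that rose in Mv4;11 and 0.05 over those that fell there. Markers of other cell types were checked in each line. Of 22 erythroid and megakaryocyte markers, 7 to 10 were at 0 in every library of a group, and their summed level was 25 to 36.8 CPM in Mv4;11 and 577 to 710 in KG-1, mostly ITGA2B. ITGA2B rose in Mv4;11 and differed by 1.62 ± 0.18. Its mean reached 5 CPM in Mv4;11 only with PMR-116, so its rise there follows in part from the filter. Fibroblast, endothelial and epithelial markers summed to 71.9 to 80.5 CPM with vehicle and 148 to 159 with PMR-116 in Mv4;11, and to 184 to 221 over all KG-1 libraries. Of 24 lymphocyte markers, 2 to 4 were at 0 throughout a group. Their summed level was 193.8 to 239.5 CPM in Mv4;11, led by CD4, which monocytes also carry, and 735 to 876 in KG-1, led by IGHM. PECAM1 led the fibroblast, endothelial and epithelial set in each group and differed by 0.999 ± 0.11. Their part in the results was not tested.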

How the data were processed

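Human KG-1 and Mv4;11 RNA libraries (stranded, polyadenylated) were read from 2 deposited tables, 1 per line, of estimated counts per gene symbol. The submitters' processing notes name Salmon 1.5.2, DESeq2 and the GRCh38.p13 build, so the authors made these expected counts by Salmon without normalization, per those notes and the values. Salmon divides reads among near-identical transcripts, so values of tubulin, histone, HLA and other duplicated genes depend on that division. The files hold 24 columns of no labelled sample, which were not used.

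Estimated counts were rounded and fitted in 1 model of 16 groups (56 libraries, 23759 genes) with edgeR 4.0.16 under R 4.3.3 (TMM, filterByExpr with a minimum count of 10, quasi-likelihood test, Benjamini-Hochberg adjustment over all genes tested, threshold 0.05). The difference was a contrast of 4 group means. Standard errors are the log2 effect over the square root of F. CPM values are TMM-scaled. Line and batch coincide, so no batch term could be fitted. The script was tested on simulated data. Replicates of 1 group differed beyond counting noise (chi-square per degree of freedom at least 8.29).

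Replicate numbers are shared by groups. Deviations of same-numbered libraries correlated at 0.547, 0.498, 0.503 and 0.196 in KG-1 and at 0.204, 0.064 and 0.055 in Mv4;11. All were over 0.1 in KG-1, but KG-1 replicate 4 lay below Mv4;11 replicate 1 and did not correlate best with its own number. The labels give no shared source. The main fit had no replicate term, so its p-values leave out any pairing. With a block in KG-1 only, the KG-1 calls went from 1183 to 1822. Positive and negative differences went from 1866 and 2761 to 2091 and 3036, and opposite genes from 263 to 473.

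The genes, lists and tests were chosen with earlier results of these data known. Genes were named by rule: opposite effects with libraries apart in both lines, ranked by the smaller effect; the largest differences; the largest KG-1 effects; the largest shared effects; and for each list the smallest p-values, with MYC, MDM2, CDKN1A, POLR1A, POLR1B, UBTF, RRN3, MCM2, SCD, DHCR7, HMGCS1, FLT3 and HEXIM1. The opposite genes of the lists, RSAD2, AARS1, LYZ, ITGA2B and SFT2D3 were chosen after their values were seen. Some genes that the rule names are not reported here. Alternatives were DESeq2 1.42.0, library totals, TMM within each line, no filter, only the 14 libraries, a spread per line, replicate blocks and leaving out each library, with the block in KG-1 only added after seeing the data. Promoter windows came from RefSeq (GRCh38.p14), matched by symbol.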

Additional observations from a re-analysis of the deposited data

Results flagged for a closer look

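The difference between the lines was itself tested for each gene, and it marked 1866 genes with a positive and 2761 with a negative difference. In 263 genes the effects were called in opposite directions. These are the comparisons described above.

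In groups of 4 libraries the highest and lowest values were set against the nearest other library (Dixon's criterion). Over the genes named by size and the fixed genes, 1 of 122 KG-1 groups stood out: in vehicle replicate 1 PLCXD1 lay at 33.98 CPM, below the other 3 vehicle libraries. Chance gives about 1 in 20 such groups.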

How the results depend on the processing

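Each count was recomputed under 22 alternative fits and with a minimum mean of 10 CPM, which left 8487 genes. The positive and negative differences stayed within 1.5 times their counts in each, with ranges of 1320 to 1797 and 2641 to 3434 when single libraries were left out. The count of opposite genes (263) was 413 with DESeq2, 154 with only the 14 libraries, 538 with the replicate block in both lines and 473 with it in KG-1 only, and 157 to 286 when single libraries were left out. The genes called in KG-1 (1183) numbered 676 with only the 14 libraries, 1995 with the replicate block in both lines and 1822 with it in KG-1 only. The differences called at 3 h (1174) numbered 1794 with a spread per line and 1826 with the replicate block, and no other count moved by over 1.5 times with a block. With the block in KG-1, FKBP4 and MCL1 passed the test in that line, and the differences of H3-3B and CD4 were called. The cause was not tested. Of 145 named genes with a called difference, 136 kept the call in each fit. The 9 others were SEMA4A, RPL10A, RPS9, RPS26, RPS27, AFF4, RRN3, RN7SK and RN7SL2, and none reversed. RRN3 lost its call with library totals, and AFF4 without treated KG-1 replicate 1. Of 616 list medians under other fits, 25 moved by more than the median standard error of their genes. Mv4;11 vehicle replicate 3, which stood apart, was also the reference library for TMM scaling, and another library took its place in each of the 14 fits that left 1 out. The median standard error of the KG-1 effects, 0.080, lies close to their median size of 0.11.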
